A study of Mus musculus with 4 samples.

Results

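The Dlk1 and Meg3 imprinted locus on mouse chromosome 12 held 17 of the 4638 Zac1 binding peaks analysed here. Its sites are the peaks with a midpoint from 110600000 to 110850000 on build mm9, and they were chosen by that position. The locus itself was picked because it includes the site with the most ChIP reads of all peaks, so read numbers and enrichments are described below and not tested. Zac1, also named Plagl1, binds DNA through zinc fingers and is itself the product of an imprinted gene. The data come from Neuro-2A, a mouse neuroblastoma cell line from the strain given as Swiss Albino, transfected with the plasmid pRK5-Zac1. Cells were fixed 16 hours later, and chromatin pulled down with the laboratory's own anti-Zac1 antibody was set against unprecipitated input chromatin of cells carrying the same plasmid. There are 4 libraries, with 2 immunoprecipitated (ChIP) and 2 input libraries. Every group thus contains overexpressed Zac1, 1 cell line was used, and cells without the plasmid or a precipitation with another antibody were not analysed here.

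Dlk1 encodes a transmembrane protein with epidermal growth factor-like repeats that is related to Notch ligands and is known as an inhibitor of adipocyte differentiation. It is expressed from the paternal chromosome. Meg3 (also known as Gtl2) is a long noncoding RNA expressed from the maternal chromosome. Their opposite imprinting depends on a methylated control region that lies between both genes. Farther along follow Rtl1, a paternally expressed gene derived from a retrotransposon, the maternal noncoding RNAs Rian and Mirg, which host small RNAs, and Dio3, which encodes a deiodinase of thyroid hormones. The series title asks whether Zac1 regulates a network of imprinted genes.

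The deposited table carries 1 ChIP count and 1 input count per peak, in reads. How both libraries of a group were combined is not stated, so no value has a replicate error. Error is given as the exact (Clopper-Pearson) 95% interval, which covers counting error only. Amplified copies cannot be told from separate molecules in these counts. Folds are ChIP reads over input reads, with input multiplied by 0.6961 as in the authors' own folds. All peaks together hold 388156 ChIP and 20321 input reads, of which 1908 ChIP reads and 119 input reads fall in the locus. Total library depths are not stated.

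Approximate mm9 landmarks, stated to 10 kb, put Dlk1 at 110.69 to 110.70 Mb and the start of Meg3 at 110.78 Mb, both on the plus strand. Every distance to a gene is measured from these landmarks and not from annotated starts. The promoters of both genes are shown for their sequence only. They are RefSeq sequences of build GRCm38.p6, plus strand, from 250 bases before to 50 bases after the annotated start, with CG dinucleotides, the substrate of the DNA methylation that marks imprinted alleles, in capitals. Dlk1 has 1 promoter in that table (chr12:109452573-109452872) and Meg3 has 2, of which the first is shown (chr12:109540746-109541045).
Dlk1: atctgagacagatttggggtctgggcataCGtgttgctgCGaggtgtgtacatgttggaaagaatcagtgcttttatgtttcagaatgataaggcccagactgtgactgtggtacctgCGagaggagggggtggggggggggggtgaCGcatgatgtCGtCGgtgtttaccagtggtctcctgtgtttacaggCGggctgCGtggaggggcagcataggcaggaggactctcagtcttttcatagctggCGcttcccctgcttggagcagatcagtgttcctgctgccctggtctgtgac
Meg3: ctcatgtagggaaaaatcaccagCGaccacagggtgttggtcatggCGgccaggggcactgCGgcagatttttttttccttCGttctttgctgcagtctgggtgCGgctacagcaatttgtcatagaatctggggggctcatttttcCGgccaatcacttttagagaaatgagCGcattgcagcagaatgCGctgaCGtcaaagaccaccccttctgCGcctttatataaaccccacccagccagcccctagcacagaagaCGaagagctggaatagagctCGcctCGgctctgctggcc
The Dlk1 promoter has 9 CG dinucleotides, the Meg3 promoter shown has 13 and the second Meg3 promoter (chr12:109545148-109545447, not shown) has 1, against a median of 7 (interquartile range 3 to 20) over 32851 promoters of the same length. The motif GGGGCCCC, which reads the same on both strands and is a sequence that Zac1 is known to bind, is in none of the 6 promoters of the 5 genes with an entry (Dlk1, Meg3, Rian, Mirg and Dio3) and in 1.08% of all promoters. Its shorter form GGGGCC, searched on both strands, is in the Dio3 promoter alone among these and in 24.97% of all promoters. No match says only that these letters are not in these windows. Sequences under the peaks are not shown, since no mm9 genome was used here.

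Zac1 peaks lay mostly before Dlk1. Of the 17 sites, 12 were at lower positions than 110.69 Mb, none fell between 110.69 and 110.70 Mb, 2 were between Dlk1 and the start of Meg3, and 3 were beyond that start. The 12 sites before Dlk1 held 1494 ChIP reads, the 2 sites between the genes held 139, and the 3 sites beyond the Meg3 landmark held 275. The sites are numbered 1 to 17 along the chromosome. The last site before Dlk1 (site 12) was 1.88 kb from its landmark, which is within the precision of that landmark. The start of Meg3 fell in the widest gap of the locus, of 72.7 kb between sites 14 and 15, with a listed peak 28.3 kb before it and the next 44.4 kb after it. A stretch of 50.3 kb without a listed peak also followed site 12, over Dlk1 itself. Every listed peak of the table had on each strand a window with at least 16 ChIP reads, and sites below that were not analysed here.

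**Figure D1:**
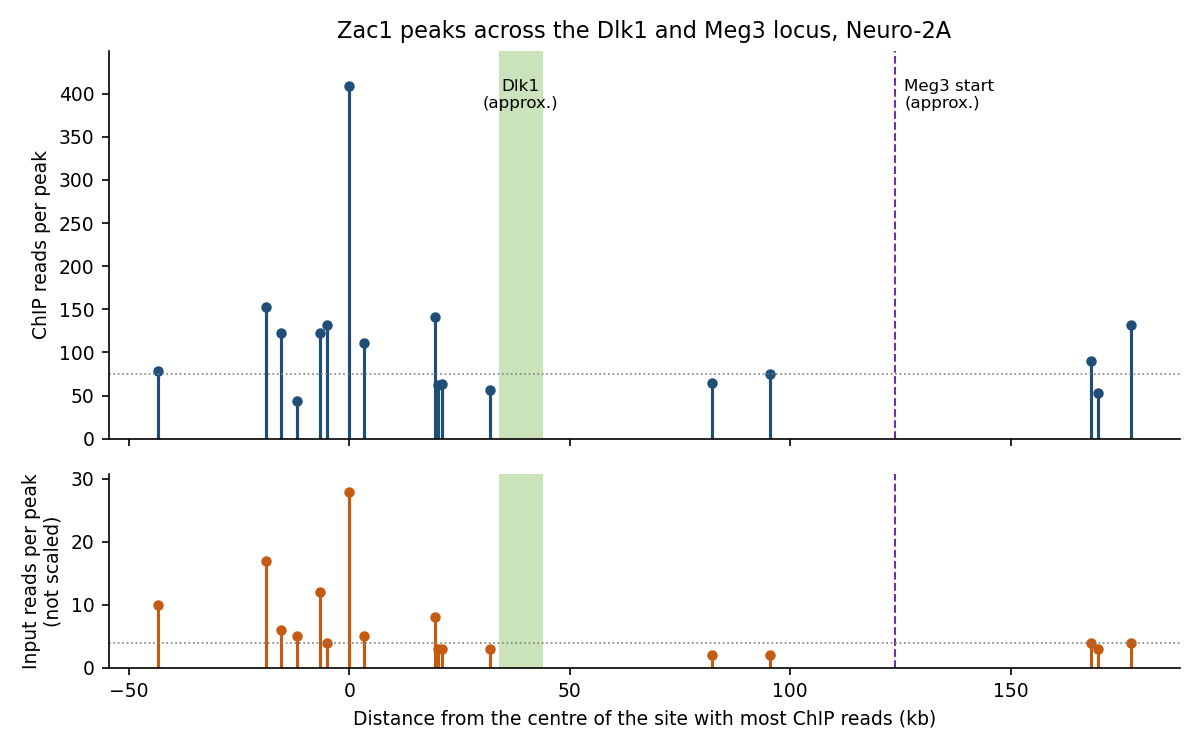
ChIP reads (upper panel) and unscaled input reads (lower panel) per peak against the distance in kb from the centre of the site with most ChIP reads. Each stem is 1 of the 17 sites, the dotted lines are the medians of all listed peaks (75 ChIP and 4 input reads), the green band is the approximate position of Dlk1 and the dashed line the approximate start of Meg3; the highest stem, 409 ChIP reads, stands 33.8 kb before the Dlk1 landmark, and no stem lies in the band.

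The most heavily read site of the whole table was site 7, at 110656103 to 110656205, with its midpoint 33.8 kb before the Dlk1 landmark and 124 kb before that of Meg3. It held 409 ChIP reads, 208 on the forward and 201 on the reverse strand, against 28 input reads, 16 forward and 12 reverse. The next highest site of the table had 382 ChIP reads, so the first place was held by 27 reads. Site 7 held 5.45 times the ChIP reads of the median listed peak and 7 times its input reads, and it took place 4 of 4638 by input. Its fold was 21.0 (14.3 to 32.0), place 3329 of 4638, with an interval that includes the 27.4 of all peaks together. In its busiest windows site 7 had 81 ChIP reads, place 6 in the table, and up to 6 input reads. In the authors' deposited table its log2 window fold was 5.52, which is matched by 77 ChIP reads and 1 input read in a window, and its rank was 335. The place of this site thus depended on the quantity, from 1 by ChIP reads to 335 by the authors' rank and 3329 by fold.

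Site 7 belonged to a row of 7 peaks within 22.1 kb (sites 2 to 8, 110637357 to 110659424), each at most 10 kb from the next. The row held 1093 ChIP and 77 input reads, a fold of 20.4 (16.2 to 26.0), and so 57.3% of the ChIP reads of the locus. Without site 7 the other 6 sites of the row ranged from 44 to 153 ChIP reads. Site 2 (110637357 to 110637385) had 153 ChIP reads and 17 input reads, which is place 17 of the table by input, and a fold of 12.9 (7.82 to 22.8). Site 3 (110640578 to 110640629) had 122 and 6 reads, a fold of 29.2 (13.0 to 81.2), and an authors' rank of 155. Site 5 (110649510 to 110649606) had the same 122 ChIP reads but 12 input reads and a fold of 14.6 (8.06 to 29.0). The folds of sites 3 and 5 have overlapping intervals, and their difference was not tested.

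Within the same row, site 6 (110651049 to 110651164) had 132 ChIP reads, 4 input reads and a fold of 47.4 (18.1 to 176.6), with an authors' rank of 129. Site 8 (110659391 to 110659424) had 111 and 5 reads and a fold of 31.9 (13.3 to 100.1). Site 4 (110644268 to 110644522) was the weakest of the locus, with 44 ChIP and 5 input reads, a fold of 12.6 (5.03 to 40.9), and an authors' rank of 4613. Sites with few and with many reads thus stood within a few kb of each other. The table has 697 rows of 2 or more peaks formed in this way, of which 10 have more than 7 peaks and 6 others have 7. Among these 17 longest rows, the row at Dlk1 had the most ChIP reads per peak, 156, but took place 15 by fold. That first place rests on site 7, for which the locus was picked. Without it the mean was 114 ChIP reads per peak, place 4 of the 17. The other rows kept their own highest sites, so that place does not compare like with like.

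Closer to Dlk1, sites 9 to 11 formed a tight group within 1.74 kb (110675475 to 110677211), 12.8 to 14.5 kb before the Dlk1 landmark. They held 141, 62 and 63 ChIP reads and 8, 3 and 3 input reads, with similar folds of 25.3 (12.5 to 59.8), 29.7 (9.70 to 147.9) and 30.2 (9.86 to 150.2). Sites 9 and 10 had the smallest spacing of the locus, 0.725 kb. When peaks within 1 kb were merged, these 3 sites became 1 and the locus held 15 peaks. Site 12 (110687987 to 110688249), the listed peak nearest to Dlk1, had 57 ChIP and 3 input reads and a fold of 27.3 (8.88 to 136.3). At the far end, site 1 (110612746 to 110612775) stood apart, 24.6 kb from site 2, with 78 ChIP and 10 input reads. Its fold of 11.2 (5.78 to 24.3) was the lowest of the locus.

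The stretch between Dlk1 and Meg3, in which the imprinting control region is known to lie, held 2 listed peaks. Site 13 (110738319 to 110738424) had 64 ChIP and 2 input reads, and site 14 (110751607 to 110751719) had 75 and 2, 41.6 and 28.3 kb before the Meg3 landmark. Their folds, 46.0 (12.2 to 387.8) and 53.9 (14.4 to 453.0), rest on 2 input reads each and are accordingly uncertain. Whether either peak overlaps the control region was not tested, since its mm9 position was not used here.

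Beyond the Meg3 landmark, sites 15, 16 and 17 lay 44.4, 45.9 and 53.4 kb from it. Whether they are inside Meg3 or a neighbouring gene was not determined, as gene ends on mm9 were not used here. Site 15 (110824325 to 110824420) had 90 ChIP and 4 input reads and a fold of 32.3 (12.2 to 121.2), and site 16 (110825875 to 110825904) had 53 and 3 reads and a fold of 25.4 (8.23 to 127.0). Site 17 (110833403 to 110833439) had the best authors' rank of the locus, 14 of the whole list, with 132 ChIP and 4 input reads. These are the same region counts as at site 6, which had rank 129. In the authors' deposited table the log2 window fold was 6.07 at site 17 and 5.70 at site 6, matched by 66 and by 51 ChIP reads in a window with no input read.

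Over the locus, ChIP reads exceeded scaled input reads 23.0-fold (19.1 to 28.0). The 81 other peaks of chromosome 12 gave 25.6 (22.9 to 28.6) and all other listed peaks gave 27.5 (27.1 to 27.9). The interval of the locus overlaps both, and a difference was not tested. The 12 sites before Dlk1 gave 20.6 (16.9 to 25.4), the 2 between the genes 49.9 (19.1 to 185.8) and the 3 beyond the Meg3 landmark 35.9 (19.8 to 72.8). These intervals overlap each other. That of the 12 sites before Dlk1 lies below the interval of all other listed peaks, as does that of the row of 7 peaks (16.2 to 26.0). Both overlap the interval of the other peaks of chromosome 12, and no difference was tested. The row is part of the 12 sites, so these are not 2 separate results. Each interval pools the reads of a set and leaves out the spread between its sites. The median fold of single sites was 26.3 before Dlk1 and 21.0 in the row, against 30.2 over all peaks. Input reads per peak were 8.67 before Dlk1, 2 between the genes and 3.67 beyond the Meg3 landmark. The mean was 7 reads per peak over the locus, 5.69 without site 7, 4.21 on the remainder of chromosome 12 and 4.38 over the whole table. What sets the input count of a site, such as the amount of its DNA in these cells, was not tested.

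**Figure D2:**
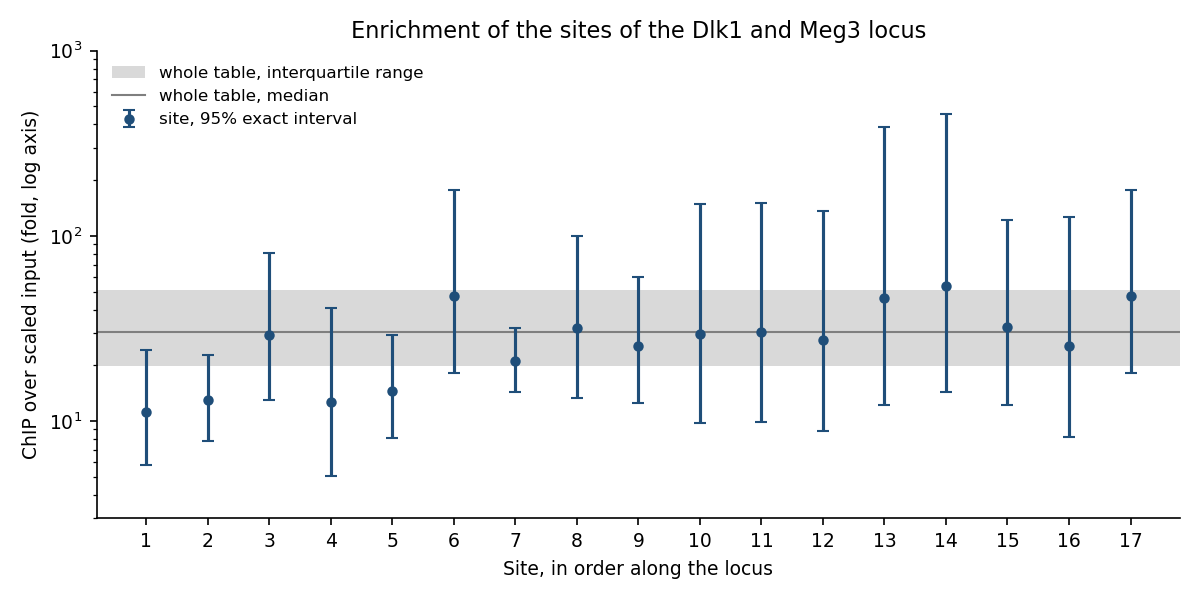
Fold of ChIP over scaled input (log axis) at each of the 17 sites, numbered along the locus, with exact 95% intervals, which cover counting error only. The grey band is the interquartile range (19.8 to 51.0) and the line the median (30.2) of all listed peaks; sites 1 and 2, and site 5, lie below the line with their whole interval.

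The median of ChIP reads was higher at the sites than in the table, while that of folds was not. The median site had 90 ChIP reads (interquartile range 63 to 132), against 75 (60 to 97) over all peaks, and 4 input reads (3 to 8), against 4 (2 to 6). Site 7, for which the locus was picked, is included in these values and in the counts that follow. Without it the median was 84 ChIP reads. Of the 17 sites, 10 were above the table's median of ChIP reads, 1 was at it and 6 were below. Among the 10% of peaks with most ChIP reads were 5 sites (2, 6, 7, 9 and 17), and among the 10% with most input reads also 5 (1, 2, 5, 7 and 9). The median fold was 29.2 in the locus and 30.2 over all peaks. A lower limit of the fold above 10 was reached by 9 of the 17 sites, against 58.3% of all peaks. That share is near the background and says nothing particular of the locus. In the authors' deposited table, the false discovery rate was 0 to 6 decimals at 17 of 17 sites and in 99.8% of all peaks, so it does not set the sites apart. The log2 window fold in the authors' deposited table had a median of 5.10 (3.70 to 6.07), against 4.95 over all peaks. A window without input reads matched that value at 12 of the 17 sites, where it therefore reflects ChIP reads alone. The share over all peaks is not given here, so this count describes the sites only.

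**Figure D3:**
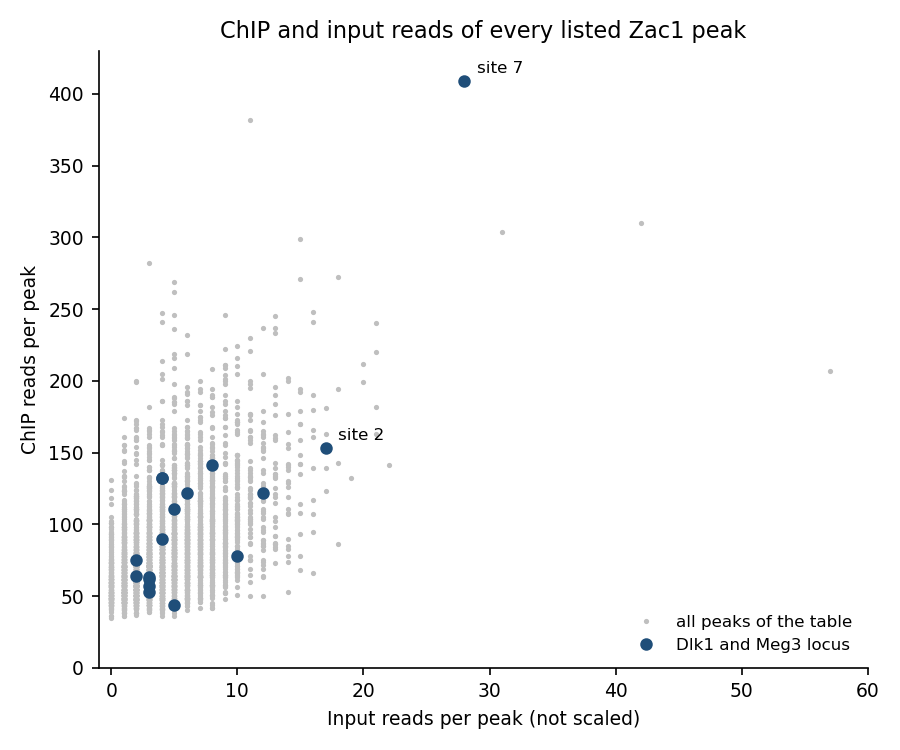
ChIP reads against unscaled input reads for all 4638 listed peaks (grey) and the 17 sites of the locus (blue). Site 7 (409 and 28 reads) stands at the top of the plot, and the other 16 sites lie within the cloud, at 44 to 153 ChIP reads.

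Taken over the locus, the forward strand carried 51.2% of the ChIP reads (48.9 to 53.5), against 50.1% over the whole table. The share was 52.6% (50.04 to 55.2) over the 12 sites before Dlk1 and 53.2% (50.1 to 56.1) over the row of 7 peaks, 49.6% (41.1 to 58.2) between the genes and 44.4% (38.4 to 50.5) beyond the Meg3 landmark. The intervals of the first 2 sets lie just above 50%. The row is part of the 12 sites before Dlk1, so these are not 2 separate results. No test of a difference between the sets was made. Single sites ranged from 43.3% at site 15 to 64.9% at site 12, and the interval included 50% at 16 of the 17. How often this holds over all listed peaks was not determined. The count therefore describes the sites only and does not set site 12 apart. The exception among single sites was site 12, with 37 forward and 20 reverse reads (51.1 to 77.1%), which also had the lowest balance of window folds between strands, 0.60 in the authors' deposited table. At site 7 the share was 50.9% (45.9 to 55.8), and its busiest windows held 46 forward and 47 reverse reads. The weaker strand's busiest window sat at the minimum of 16 reads at sites 4, 12 and 15, and at 1023 of all 4638 peaks.

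The reverse summit lay 103 bp beyond the forward summit at site 7, equal to the deposited length of that peak. This equality held at 12 of the 17 sites and in 77.4% of all peaks. The length is thus a spacing of strand summits in most cases and not a width of binding. The order of summits was inverted at sites 4 and 12, by 37 and 46 bp. These were also the 2 longest peaks of the locus, at 255 and 263 bp. Inverted or zero spacing occurred in 12.3% of all peaks.

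**Figure D4:**
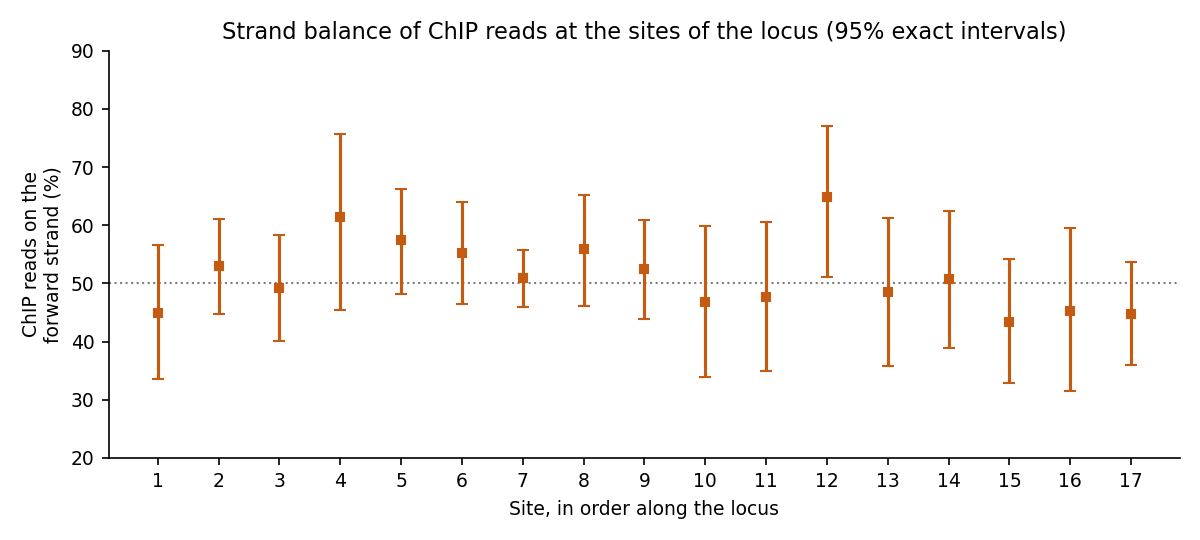
Share of ChIP reads on the forward strand, in percent, at each of the 17 sites, with exact 95% intervals and a dotted line at 50%. The interval of site 12 alone lies above the line, and the most heavily read site, site 7, has the narrowest interval (45.9 to 55.8%). How many of all listed peaks have an interval off the line was not determined, so this does not set site 12 apart.

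Listed peaks were crowded in the locus. Chromosome 12 had 98 listed peaks, of which the locus held 17.3%, with 23.9% of the chromosome's ChIP reads within peaks. The nearest listed peak on the centromeric side of the window, at 110305522 to 110305579, was 307 kb from site 1 and had 68 ChIP and 4 input reads. On the distal side, the nearest, at 111077587 to 111077789, was 244 kb from site 17 and had 107 and 5 reads. Widening the window by 100 kb on each side added no peak. These gaps were not compared with gaps elsewhere in the genome, so they do not set the locus apart. Among the 1578 windows of 250 kb with a listed peak, laid out in step with the locus, 12 had more peaks and 2 others had equally many, and the median was 2. This layout keeps the locus whole but can cut other groups of peaks, which favours the place of the locus. The next densest window on chromosome 12 had 11. By ChIP reads and by input reads the window of the locus took place 10. Within the locus, 13 of 17 sites (76.5%) had another listed peak within 10 kb, against 41.1% of all peaks.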

How the data were processed

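Zac1 ChIP and input libraries of transfected Neuro-2A cells were read from 1 deposited peak table with CisGenome column names, per the file headers. The submitters' processing notes name mm9. For the aligner, filters and handling of replicates, nothing is given in the sources used here. The authors deposited read counts per peak, in all and by strand, a log2 window fold, a p-value-like false discovery rate, a strand balance given as a fraction, and a rank, which is a score used only to describe peaks. The ranks run to 4688, and 50 of them were not analysed here.

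The scaling of input, 0.6961, was recovered from the deposited log2 folds, which it matched with whole window counts and a pseudocount of 1 in 100.0% of peaks (tolerance 0.0002), against 84.1% without scaling. Folds and intervals were computed with scipy 1.17.1 in Python 3.11.15, and the code was tested on simulated data. Neighbours were counted between midpoints. Every site of the locus, and the nearest peak on either side, is named by rule. No test was made, because the locus, its sites and the lists were chosen with earlier results of these data known. Coordinates were not converted between builds. Rtl1 has no entry in the promoter table.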

Additional observations from a re-analysis of the deposited data

How the results depend on the processing

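The locus held 17 peaks, 10 with a window of at least 20 ChIP reads on both strands, 13 in the better ranked part of the table, 17 in the widened window and 15 after merging within 1 kb. The share of all peaks with at least 20 reads on both strands is not given here. The weaker strand's busiest window had a median of 20 reads at the sites and 18 over all peaks. Its fold of 23.0 was 16.0 without scaling of the input, and lay between 19.98 and 25.9 under the 5 other alternatives. Of these, leaving out site 7 (23.7) was chosen after seeing the data. The fold of site 7 was 21.0, 14.6 without scaling and 19.4 from busiest windows. The shorter motif was in 24.97% of promoters, against 1.08%, since it has fewer letters. No paired analysis was possible because replicates share 1 value per peak in the table, which also means that none of them could be omitted. The count of 119 input reads limits the fold of the locus, and 2 to 28 reads that of a site.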
